A study of Homo sapiens with 40 samples.

Results

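Small cassette exons of 28 to 50 nt were followed across 3 point mutants of RNA polymerase II. They were taken by length alone from the RNA-seq exon tables, where a row is an exon together with the pair of introns around it, called an event below. The rule took 1115 of 15724 events, 7.09%, at 1023 exon positions in 913 genes, of which 893 had a symbol. Their median length was 42 nt. 974 events were in both RNA-seq tables, 58 in the R749H table alone and 83 in the E1126G table alone, and 213 were also measured by RASL-seq, in which probe pairs are ligated across chosen exon junctions and counted. 159 events had values in all 5 exon tables.

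The cells were HEK293 Flp-in T-REx, a human embryonic kidney line, carrying the pcDNA5 plasmid with Rpb1 Amr, the large subunit of RNA polymerase II in a form that resists α-amanitin. Rpb1 was WT, R749H, H1106Y or E1126G; R749H and H1106Y are known as slowly elongating enzymes and E1126G as a fast one. In every group, WT included, doxycycline switched the resistant Rpb1 on for 12 to 16 h, then α-amanitin shut off the cells' own enzyme for 42 h, and polyA+ RNA was taken. There were 2 RNA-seq libraries each for WT, R749H and E1126G and 3 RASL-seq libraries for each of the 4 genotypes. The labels do not say whether a line is 1 clone, and the tables give 1 pooled WT level and 1 change per event, with no value per library and no depth. Both RNA-seq comparisons therefore share their WT libraries, as do the 3 RASL-seq comparisons.

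An exon is usually recognised as a unit, by factors that bind the splice sites at its ends and by SR proteins and hnRNPs on the exon between them. A short exon leaves little room for both, and many short exons depend on intronic enhancers or tissue-specific regulators. Because introns are removed largely while the polymerase is still transcribing, its speed sets how long an upstream splice site is available before a competing one is made.

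Inclusion is given as the percent of exon-joining signal that includes the exon, in WT and in the mutant, and changes are in percentage points. An event is called changed when the authors' p-value was under 0.05 after Benjamini-Hochberg adjustment across its whole table. A log2 change is that of the ratio of inclusion to skipping, and its standard error was derived from the authors' p-value, so it is approximate. Over the members its median was 0.77 in R749H and 0.76 in E1126G by RNA-seq, and 0.33, 0.33 and 0.26 in R749H, H1106Y and E1126G by RASL-seq. Smaller changes could thus be called by RASL-seq than by RNA-seq. Coordinates are on GRCh37, counted from 1. Whether an exon is coding or lies in a UTR was not analysed here.

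In the slow mutant R749H the small exons called by RNA-seq were mostly skipped more often. RNA-seq called 188 of 1032 members (18.2%), against 15.1% of all events in that table. 139 of the calls were lower (13.5% of members, against 8.04% of all events) and 49 were higher (4.75%, against 7.07%). Among the calls 73.9% were lower, compared with 53.2% among all called events. The median log2 change was -0.40 over the members and -0.00 over all events, and 105 members fell by 10 points or more (10.2%, against 5.43% of all events) and 33 rose by as much (3.20%, against 4.56%).

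The deepest falls in R749H came from genes of several kinds. The exon of SLC25A36, a mitochondrial pyrimidine nucleotide carrier, went from 73.6% in WT to 14.8% (chromosome 3, 140685842 to 140685878; adjusted p = 4.70e-11). PHACTR4, a phosphatase and actin regulator, lost a 28 nt exon from 75.6% to 18.2%. ADGRL2, an adhesion receptor of the latrophilin family, fell from 58.4% to 10.5%, and RSRP1 from 76.7% to 30.5%. These exons turned from mostly included to mostly skipped. Falls of 41.7 to 46.2 points were also called for ZNF615, TMEM241, CLSTN1, PPP3CB, KCNAB2 and UPF3B. CLSTN1 encodes calsyntenin-1, a cadherin-like cargo receptor for kinesin, and its 30 nt exon was almost lost, at 48.2% in WT and 3.49% in R749H.

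The largest rise in R749H was larger than any fall. ARHGAP26, a GTPase-activating protein, included its 30 nt exon at 9.52% in WT and 84.6% in R749H (chromosome 5, 142587009 to 142587038). In the authors' deposited table its log2 change was 5.71, with a derived standard error of 1.16 and an adjusted p of 2.47e-05. TPCN1, an endolysosomal cation channel, rose from 9.62% to 64.7%. SREBF1, the sterol-regulated transcription factor, rose from 7.41% to 47.3%, and PAX6, a paired-box transcription factor, from 46.6% to 80.0%. The remaining large rises, of 35.3 to 54.0 points, were in ZNF573, MDM4, IL32, MRPL55, CYBC1 and TBCK. The IL32 values are identical to those listed for another exon position, so they cannot be assigned to the small exon alone.

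In the fast mutant E1126G the calls went the same way and were more one-sided. RNA-seq called 109 of 1057 members (10.3%), against 6.48% of all events. 96 were lower (9.08% of members, against 4.27% of all events) and 13 were higher (1.23%, against 2.20%), so that 88.1% of the calls were lower, compared with 66.0% among all called events. The median log2 change was -0.39 over the members and -0.08 over all events. 68 members fell by 10 points or more (6.43%, against 2.84% of all events) and 8 rose by as much (0.757%, against 1.28%).

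The exon of LRP8, a receptor for apolipoprotein E and reelin, fell furthest, from 82.1% in WT to 21.4% in E1126G (chromosome 1, 53738276 to 53738314; adjusted p = 6.71e-06). NF2, the tumour suppressor merlin that links membrane and actin, fell from 88.6% to 33.9%. A 35 nt exon listed under both SYCP2L and TMEM14B fell from 85.5% to 34.5%, and the kinesin KIF13A fell from 85.5% to 36.8%. MYL6, the non-muscle myosin essential light chain, fell from 79.2% to 36.6%, with one of the smaller errors in the table. In the authors' deposited table the log2 change of MYL6 was -2.72, and its derived standard error was 0.23. UPF3B, PHACTR4, ZFAND1 and SLC25A36 fell by 42.7 to 51.4 points.

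Rises in E1126G were few and smaller. SEPTIN6, a cytoskeletal GTPase, rose from 21.1% to 52.8%, and MRPL55, a protein of the large mitochondrial ribosomal subunit, rose from 38.3% to 69.9%. The MRPL55 exon was listed with 4 intron pairs, which are not independent; all 4 were called higher in R749H and 3 of them in E1126G. SREBF1 rose from 7.41% to 32.4%, PPP3CC, a calcineurin catalytic subunit, from 43.6% to 70.8%, and PCSK6, a proprotein convertase, from 71.4% to 91.6%. PRRC2C and ACP1 rose by 15.8 and 9.71 points. The smallest of the 10 largest rises was 1.48 points, for PCBP2.

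**Figure D1:**
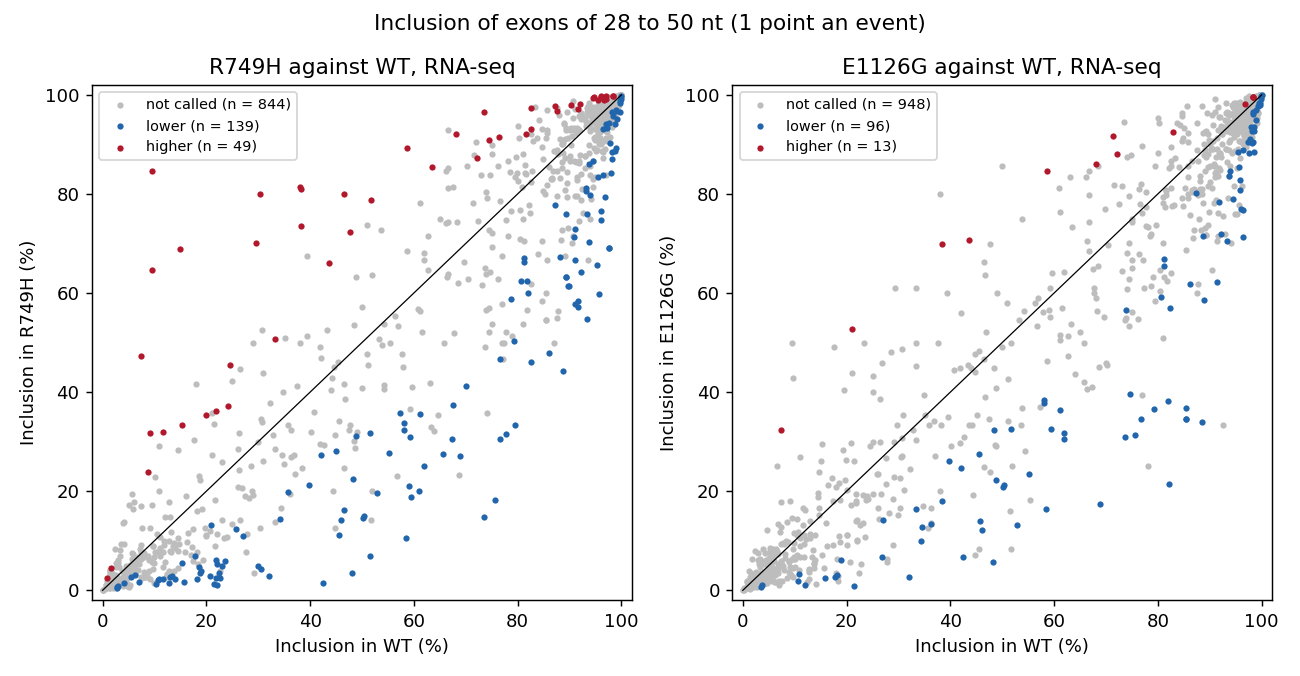
Inclusion in WT (horizontal, percent) against inclusion in the mutant (vertical, percent) by RNA-seq, for R749H and for E1126G; each point is 1 event with an exon of 28 to 50 nt, blue where called lower, red where called higher and grey where not called, and the line marks equal inclusion. Blue points outnumber red ones in both panels, 139 to 49 in R749H and 96 to 13 in E1126G.

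By RASL-seq the slow mutant R749H gave 86 calls among 196 members (43.9%), against 44.1% of all events, so the share called was that of the table. 49 were lower (25.0% of members, against 20.1% of all events) and 37 higher (18.9%, against 24.0%). The median log2 change was -0.15, compared with 0.05 over all events. Changes of 10 points or more were called in 40 members (20.4%, against 16.7% of all events). ARAP1, a GTPase-activating protein for Arf, fell from 76.9% to 33.3%. Its adjusted p was 0.0411, and its log2 change of -2.74 had a derived standard error of 1.15. GSK3B, the glycogen synthase kinase, fell from 45% to 11.0%. FIP1L1, a subunit of the cleavage and polyadenylation factor, fell from 30.5% to 6.91%. PTBP2, the neuronal relative of the polypyrimidine tract-binding protein, fell from 39.3% to 14.3%. ZBTB49, UPF3B, SLC25A36, DHX30, PIP5K1A and DMD, the dystrophin gene, fell by 20.7 to 30.7 points.

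Called rises in R749H by RASL-seq had a median of 5.51 points, and called falls a median of -11.9 points. Over all events these medians were 5.93 and -7.90 points. 12 rises and 28 falls of the 196 members reached 10 points, against 194 rises and 182 falls of all 2248 events. LEF1, a transcription factor of the Wnt pathway, rose from 42.5% to 83.3%, and LRRC28 from 27.7% to 68.4%. ITSN1, the endocytic scaffold intersectin-1, rose from 67.8% to 94.3%. DNM1L, the GTPase of mitochondrial fission, rose from 46% to 69.7%, and the polarity kinase MARK1 from 69.5% to 92.0%. TTLL5, CREM, COBLL1, MDM4 and CD59 rose by 14.3 to 20.2 points.

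In the other slow mutant, H1106Y, RASL-seq called 116 of 187 members (62.0%), against 61.9% of all events. 77 were lower (41.2% of members, against 38.2% of all events) and 39 higher (20.9%, against 23.7%), and the median log2 change was -0.33, equal to that of all events to this precision. In this comparison neither the share called nor the median set these 187 members apart. Over all 242 exons of 28 to 50 nt measured in it, RNA-seq rows or not, 61.2% were called and the median was -0.54. Changes of 10 points or more were called in 65 members (34.8%, against 32.9% of all events), and individual exons moved by up to 53.5 points. UPF3B fell from 68.1% to 14.5%, PLCB4, a phospholipase C, from 86.3% to 36.4%, and PIP5K1A, a phosphatidylinositol phosphate kinase, from 59.7% to 9.92%. POLB, the repair DNA polymerase, fell from 70.1% to 24.6%, and PPFIBP1, the scaffold liprin-β1, from 45.7% to 4.90%. DHX30, GSK3B, NAP1L4, DDX3X and GOLGA4 fell by 36.9 to 47.0 points. Among the rises, ITSN1 reached 98.2% and MARK1 95.1%, and COBLL1 rose from 9.39% to 40.3%. ADGRL3, CREM, TPP2, DDX19B and DLST rose by 19.6 to 28.8 points. The same 36 nt CREM exon with a longer left intron was called lower in H1106Y, from 47.1% to 21.6%, so that its 2 events went in opposite directions. PLEKHA1 and ATF2 rose by 35.4 and 34.9 points, but their RASL-seq values are identical to those of another listed exon position.

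In E1126G by RASL-seq small exons were again called lower more often than the table as a whole. 115 of 199 members (57.8%) were called, against 47.5% of all events. Lower calls made up 50.8% of the members, against 33.6% of all events, and 14 members were higher (7.04%, against 13.9%). The median log2 change was -0.82 over the members and -0.37 over all events. When the direction was read around that median of all events, 99 of the calls were lower and 16 higher. Changes of 10 points or more were called in 59 members (29.6%, against 17.9% of all events). ADGRG6, an adhesion receptor, fell from 90.4% to 37.2% (chromosome 6, 142762045 to 142762090), and NKTR, a cyclophilin-like protein, lost 51.3 points of a 28 nt exon that was at 91.3% in WT. CA12, a membrane carbonic anhydrase, fell from 86.9% to 45.8%. UPF3B, MDM4, GOLGA4, GSK3B, ARID1B and DHX30 fell by 27.9 to 45.4 points. ALCAM, an adhesion molecule, rose from 38.1% to 77.8%, and SEPTIN6 rose in both of its events. PCSK6, SMARCA1, PAX6, PRRC2C, MARK3, BRD8 and COBLL1 rose by 6.76 to 16.2 points. This PCSK6 exon, of 46 nt, is a different one from the 39 nt exon that rose by RNA-seq.

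335 of 1115 events, at 311 positions in 295 genes, were called in at least 1 of the 5 tables, against 22.4% of all RNA-seq events. 230 were called lower only (68.7% of those called, against 52.8% over all events), 75 higher only (22.4%, against 40.4%) and 30 in different directions in different tables (8.96%, against 6.81%). Of the 159 events measured in all 5 tables, 10 were called in each of them (6.29%, against 5.17% of all such events). 9 were lower throughout (5.66%, against 3.36%) and 1 higher throughout, against 20 of 1430 events higher throughout over all events. Since the mutants share their WT libraries within an assay, these are not 5 independent observations.

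The 9 exons called lower in every table lie in genes of decay, signalling, trafficking and adhesion. UPF3B, which joins the exon junction complex to nonsense-mediated decay, has an exon with closely matching WT levels in both assays (39 nt, X chromosome, 118974609 to 118974647, minus strand). RNA-seq gave 68.9% in WT, 27.2% in R749H and 17.5% in E1126G. RASL-seq gave 68.1% in WT, 41.6% in R749H, 14.5% in H1106Y and 22.7% in E1126G. Every mutant was below WT, H1106Y furthest by RASL-seq. The RASL-seq values of UPF3B are identical to those of another listed exon position.

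NUMB is the endocytic adaptor that restrains Notch, and its 33 nt exon (chromosome 14, 73783098 to 73783130) stood at 59.4% in WT, 18.8% in R749H and 32.6% in E1126G by RNA-seq. By RASL-seq it stood at 17.7% in WT, 6.90% in R749H, 1.63% in H1106Y and 4.74% in E1126G. The WT level differed more between the assays than any mutant differed from WT by RASL-seq, while WT stood above each mutant in both. CLSTN1 (30 nt, chromosome 1, 9816539 to 9816568) showed the same gap, with 48.2% in WT by RNA-seq and 7.53% by RASL-seq. Its RASL-seq levels in the mutants were 0.546% in R749H, 1.23% in H1106Y and 2.43% in E1126G, and by RNA-seq E1126G was at 5.75%.

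PPP3CB, the β catalytic subunit of calcineurin, kept most of its 30 nt exon in WT, 88.8% by RNA-seq and 92.1% by RASL-seq. RNA-seq gave 44.2% in R749H and 58.5% in E1126G, and RASL-seq gave 81.1%, 66.2% and 81.4% in R749H, H1106Y and E1126G. In RASL-seq H1106Y was the lowest. GNAS, the stimulatory G protein α subunit, moved least of the 9 by RNA-seq, with 51.6% in WT, 31.7% in R749H and 32.6% in E1126G. By RASL-seq GNAS stood at 79.5% in WT, 67.6% in R749H, 72.0% in H1106Y and 66.0% in E1126G.

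ADGRL2 fell by RASL-seq from 10.4% in WT to 1.92% in R749H, 6.75% in H1106Y and 5.25% in E1126G, and by RNA-seq it was at 16.4% in E1126G. SPAG9, a scaffold of JNK signalling that binds kinesin, went from 32.1% in WT to 2.82% in R749H and 2.70% in E1126G by RNA-seq. By RASL-seq SPAG9 stood at 14.1% in WT, 5.53% in R749H, 3.95% in H1106Y and 3.23% in E1126G. PI4KB, the Golgi phosphatidylinositol 4-kinase, was nearly fully skipped in both mutants by RNA-seq, at 21.4% in WT, 1.20% in R749H and 0.862% in E1126G. Its RASL-seq levels were 9.06% in WT and 3.22%, 1.71% and 2.36% in R749H, H1106Y and E1126G.

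MARK3, a kinase of cell polarity, shows how much an event depends on its introns. With 1 intron pair its 45 nt exon (chromosome 14, 103966493 to 103966537) stood at 45.6% in WT, 11.1% in R749H and 13.9% in E1126G by RNA-seq, and at 8.62% in WT, 6.22% in R749H, 2.85% in H1106Y and 6.50% in E1126G by RASL-seq. With the other intron pair the same exon was at 82.6% in WT, 82.4% in R749H and 77.6% in E1126G by RNA-seq, neither change called. By RASL-seq that second event rose in E1126G, from 30.6% to 39.9%, and was not called in the slow mutants.

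PRRC2C, an RNA-binding protein of stress granules, had the 1 exon called higher in all 5 tables (49 nt, chromosome 1, 171560291 to 171560339). RNA-seq gave 72.2% in WT, 87.3% in R749H and 88.0% in E1126G. RASL-seq gave 76.3% in WT, 87.2% in R749H, 85.5% in H1106Y and 86.6% in E1126G. The 5 mutant levels lay close together, and WT lay below all of them in both assays.

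**Figure D2:**
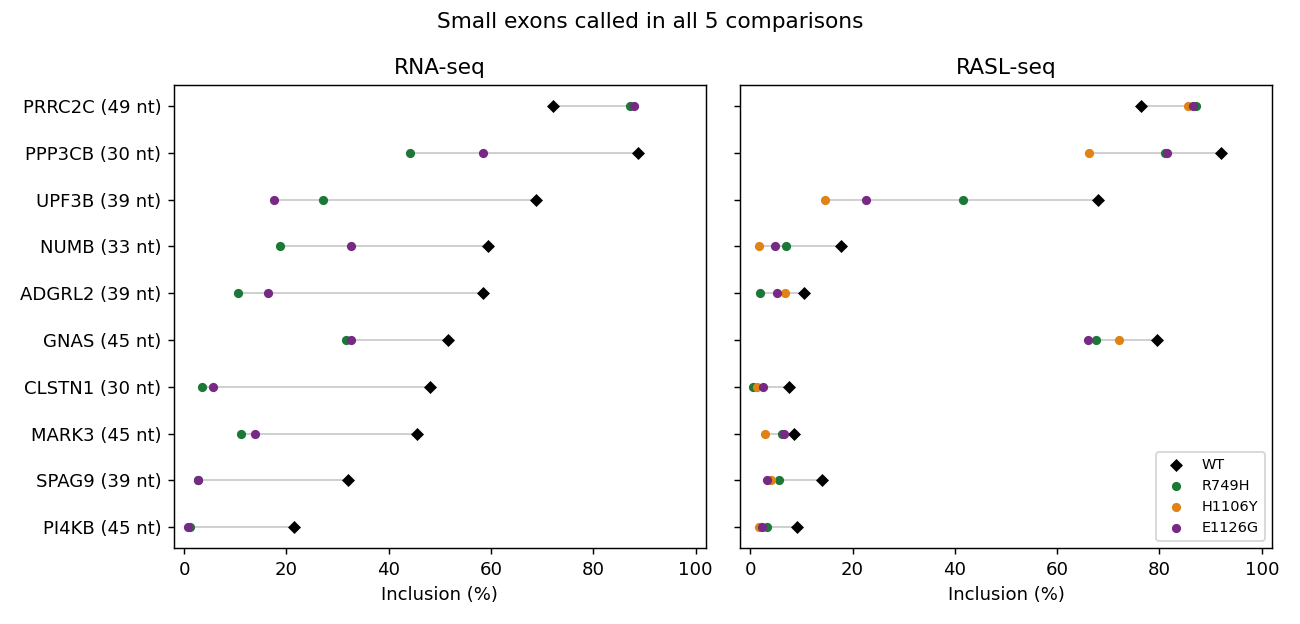
Inclusion (percent) of the 10 small exons called in all 5 comparisons, by RNA-seq (left) and RASL-seq (right); diamonds are WT and dots are the mutants, each the pooled level of its libraries, and a grey line spans them. The mutants lie left of WT for 9 exons and right of it for PRRC2C, and WT levels of NUMB, ADGRL2, CLSTN1 and MARK3 are much lower by RASL-seq.

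The direction of the calls followed exon length, and exons of 28 to 50 nt lie near one end of that order. In R749H by RNA-seq 80.4% of called exons of at most 27 nt were lower, 73.9% at 28 to 50 nt, 65.9% at 51 to 100 nt, 44.1% over 100 and up to 200 nt and 23.7% above 200 nt. In E1126G the same shares were 86.4%, 88.1%, 80.5%, 49.5% and 34.7%. The RASL-seq tables, here with every exon of the length whether or not it was an RNA-seq row, gave 59.1% at 28 to 50 nt and 27.6% above 200 nt in R749H, 68.2% and 54.8% in H1106Y, and 86.9% and 41.3% in E1126G. These shares are descriptions without a test. Inclusion in WT also differed by length in the R749H RNA-seq table, with medians of 54.9% up to 27 nt, 82.4% for the members, 91.3% at 51 to 100 nt and 87.9% above 200 nt, and its part in the pattern was not tested.

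Just inside the limits of 28 and 50 nt RNA-seq called 2 of 12 events of 28 nt and 9 of 53 events of 50 nt in R749H. Just outside, 9 of 52 events of 27 nt and 29 of 116 events of 51 nt were called. In E1126G by RNA-seq 1 of 14 events of 28 nt and 3 of 53 of 50 nt were called, and 8 of 53 of 27 nt and 15 of 122 of 51 nt. In R749H by RASL-seq 0 of 8 exons of 50 nt and 19 of 29 of 51 nt were called. The other RASL-seq tables showed no such gap, with 5 of 7 and 18 of 26 in H1106Y, and 5 of 9 and 17 of 31 in E1126G. The lengths just outside are multiples of 3 and those just inside are not. Within the range the share called in R749H was 16.1% at 28 to 32 nt, 18.2% at 33 to 39 nt, 19.0% at 40 to 45 nt and 18.3% at 46 to 50 nt.

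**Figure D3:**
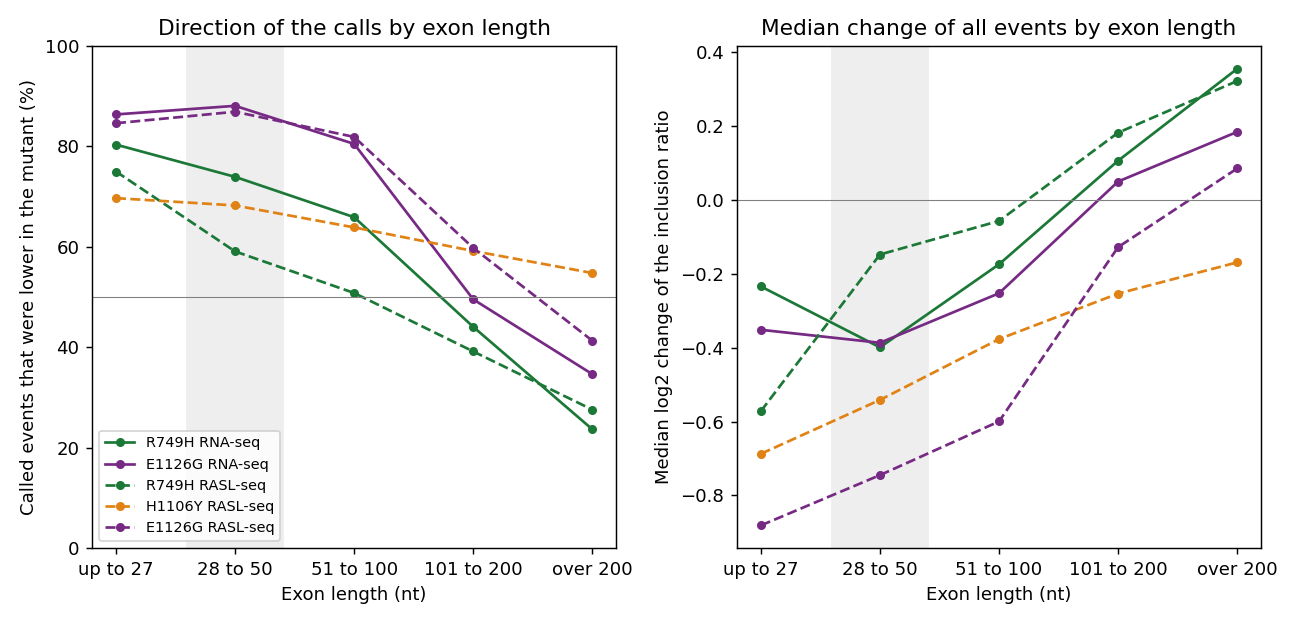
Exon length class (horizontal, nt) against the percent of called events that were lower in the mutant (left) and the median log2 change over every event of the class (right), with 1 line for each of the 5 comparisons, solid for RNA-seq and dashed for RASL-seq; the shaded band marks 28 to 50 nt. The lower share declines from the short to the long classes in each comparison, apart from a slightly higher value at 28 to 50 nt than in the shortest class for E1126G.

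538 of the 1115 members, 48.3%, had a length divisible by 3, which keeps the reading frame if the exon is coding, against 43.1% of the other events. In R749H by RNA-seq 20.5% of these 3-divisible members were called and 16.1% of the others. The corresponding shares were 11.7% and 8.99% in E1126G. Over all events they were 16.2% and 14.2% in R749H and 6.77% and 6.25% in E1126G.

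By RNA-seq small exons of intermediate inclusion in WT were called most often, as was so for all events. In R749H 30.3% were called at 10 to 50% inclusion in WT and 24.7% at 50 to 90%, against 8.33% under 10% and 13.2% over 90%. Over all events the shares were 24.3% and 21.2%, against 13.0% and 10.8%. For the small exons RASL-seq gave another order in 2 mutants, with the highest share under 10% inclusion, 67.6% in H1106Y and 67.6% in E1126G. Over all events the shares under 10% were 59.6% in H1106Y and 43.3% in E1126G. The highest shares over all events were 66.3% at 50 to 90% in H1106Y and 52.6% at 10 to 50% in E1126G. In R749H by RNA-seq the 14 calls below 10% were evenly split, 7 lower and 7 higher, against 55 and 233 over all events. By RASL-seq calls below 10% were 10 lower and 4 higher in R749H, 13 and 10 in H1106Y, and 22 and 3 in E1126G. Over all events these calls were 87 lower and 112 higher, 80 and 141, and 125 and 75. At 10 to 50% in R749H by RNA-seq 43 calls were lower and 16 higher. Over all events of that inclusion 232 were lower and 295 higher. In E1126G by RNA-seq the same class of small exons gave 25 lower and 3 higher calls, against 124 and 96 over all events.

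By RNA-seq the split of directions in R749H differed with the length of the shorter neighbouring intron. Where it was under 500 nt, 34 small exons were lower and 25 higher. From 500 nt to under 2000 nt the counts were 70 lower and 16 higher, and at 2000 nt or more 35 lower and 8 higher. Over all events with an intron under 500 nt the calls ran the other way, 232 lower and 560 higher. In the longer classes they leaned lower over all events too, 538 lower and 329 higher, then 384 and 126. In E1126G the small exons gave 28 lower and 8 higher, 45 and 4, and 23 and 1 in the same 3 classes. All events in E1126G by RNA-seq gave 196 and 165, 265 and 117, and 165 and 41. By RASL-seq small exons in R749H gave 11 lower and 7 higher, 22 and 13, and 16 and 17. All events gave 74 and 151, 214 and 150, and 163 and 239. The lean of small exons to lower calls was thus absent at the longest introns, unlike by RNA-seq. All events leaned higher there, with 40.5% of calls lower, against 48.5% for the small exons. H1106Y gave 16 and 8, 36 and 15, and 25 and 16, and E1126G gave 16 and 7, 46 and 5, and 39 and 2.

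A few neighbouring introns were themselves listed in the tables of retained introns. Each of the 2 intron tables held 59 introns next to small exons, of which 57 were in both. In R749H 15 of the 59 were called, against 18.9% of all introns in that table. 11 were less retained, against 6.99% of all introns, and 4 more, against 11.9%. In E1126G 6 of the 59 were called, against 9.18% of all introns, 5 less retained, against 4.67%, and 1 more, against 4.51%. Exon and intron were both called in 2 pairs in R749H and in 0 pairs in E1126G, where each was adjusted over its own table. In PAXX, a factor of DNA end joining, the 50 nt exon rose by 2.72 points in R749H while the intron on its right fell from 82.1% to 72.0% retained. In E1126G that intron was also called, at 71.3%, while the exon changed by -0.36 points and was not called. In NAA10, an N-terminal acetyltransferase, the 45 nt exon fell by 0.660 points in R749H while the intron on its right rose from 12.5% to 20.2% retained. In E1126G the exon change of -0.647 points was called, and the intron was at 10.4%, not called. The MRPL55 exon rose strongly while its neighbouring intron was at 90.9% in WT, 94.7% in R749H and 86.8% in E1126G, neither called.

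The 6 gene lists below were drawn up with earlier results of these data known, and their counts are descriptions. For reference, RNA-seq called 18.2% of members and 15.1% of all events in R749H, and 10.3% and 6.48% in E1126G. RASL-seq called 43.9% and 44.1% in R749H, 62.0% and 61.9% in H1106Y, and 57.8% and 47.5% in E1126G. Shares called in a list are given below with the mutants in this order. The list of cytoskeleton, motors and adhesion had the lowest median log2 change of the 6 in each comparison. No test compared the lists. Among its members 9 of 44 events were lower and 1 higher in R749H by RNA-seq and 6 of 43 lower and 0 higher in E1126G. By RASL-seq 13 of 23 were lower and 0 higher in R749H, 15 of 22 lower and 3 higher in H1106Y, and 16 of 23 lower and 1 higher in E1126G. Its median log2 change was -0.88 and -0.69 by RNA-seq, and -0.90, -1.01 and -1.38 by RASL-seq. The medians over all members given above lie closer to 0 in each of the 5 comparisons. KIF23, a kinesin of cytokinesis, fell in E1126G from 74.7% to 39.6% by RNA-seq and from 87.1% to 72.3% by RASL-seq. By RNA-seq KIF23 was at 64.3% in R749H, which was not called. MYO18A, an unconventional myosin, fell in R749H from 67.3% to 30.6% by RNA-seq, and KIF13A fell by RASL-seq in H1106Y, from 44.3% to 13.3%.

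Kinases, GTPase regulators and signalling genes gave 8 lower and 3 higher calls of 30 events in R749H by RNA-seq and 6 lower and 1 higher of 33 in E1126G. By RASL-seq the counts were 4 lower and 1 higher, 5 and 1, and 6 and 1 of 11 events in R749H, H1106Y and E1126G. The shares called were 36.7% and 21.2% by RNA-seq, and 45.5%, 54.5% and 63.6% by RASL-seq. Beside ARHGAP26, ADGRL2 and PPP3CB, LRP8 fell in R749H too, from 82.1% to 60.0%, with an adjusted p of 0.0487. ARHGAP26 was 40.5 points above WT in E1126G, and that change was not called.

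Splicing and RNA processing genes were called in both directions in R749H, with 5 lower and 3 higher of 25 events by RNA-seq, and 2 lower and 0 higher of 24 in E1126G. By RASL-seq 3 were lower and 2 higher of 8 in R749H, 3 lower and 0 higher of 7 in H1106Y, and 3 lower and 0 higher of 8 in E1126G. By RNA-seq FIP1L1 fell in R749H, from 61.1% to 20.1%, and was at 51.4% in E1126G, not called. By RASL-seq FIP1L1 was called lower in H1106Y, at 4.28%, and in E1126G, at 14.7%. HNRNPA2B1, a core hnRNP protein, stood at 48.4% in WT by RNA-seq and was called lower in both mutants, at 22.5% in R749H and 32.3% in E1126G. PTBP2 fell by RASL-seq in R749H, as given above, and stood at 40.2% in H1106Y and 41.7% in E1126G against 39.3% in WT, neither called.

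Endocytosis and membrane trafficking genes gave 3 lower and 1 higher of 24 events in R749H by RNA-seq and 3 lower and 0 higher of 23 in E1126G. By RASL-seq 2 were lower and 5 higher of 9 in R749H, 3 lower and 4 higher of 9 in H1106Y, and 4 lower and 0 higher of 8 in E1126G. ITSN1 rose in both slow mutants by RASL-seq and was at 59.4% in E1126G, not called. By RNA-seq ITSN1 was at 69.6% in WT, 66.2% in R749H and 55.2% in E1126G, neither called. GOLGA4, a golgin of the trans-Golgi, stood at 76.3% in WT by RASL-seq and was called lower in R749H at 62.2%, in H1106Y at 39.4% and in E1126G at 42.2%.

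Chromatin and transcription genes gave 7 lower and 2 higher of 26 events in R749H by RNA-seq and 6 lower and 0 higher of 29 in E1126G. By RASL-seq the counts were 3 lower and 4 higher of 12, 3 lower and 4 higher of 9, and 6 lower and 3 higher of 11. Of this list's events RNA-seq called 34.6% and 20.7%, and RASL-seq 58.3%, 77.8% and 81.8%. FOXM1, a cell-cycle transcription factor, stood at 93.3% in WT by RNA-seq and was called lower in R749H at 81.2% and in E1126G at 70.5%, while its WT level by RASL-seq was 22.1%. MTA1, of the NuRD complex, fell in E1126G by both assays, from 96.5% to 71.4% and from 95.8% to 75.0%, and was not called in R749H or H1106Y.

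DNA repair, cell cycle and apoptosis genes had few members, with 3 lower and 1 higher of 12 events in R749H by RNA-seq and 1 lower and 0 higher of 12 in E1126G. By RASL-seq 0 were lower and 1 higher of 4 in R749H, 1 lower and 0 higher in H1106Y, and 2 lower and 0 higher in E1126G. CDC25C, the mitotic phosphatase, fell from 76.6% to 46.7% in R749H and was at 78.0% in E1126G. CASP8, the initiator caspase, fell from 89.9% to 61.4% in R749H.

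The assays shared 187 members for R749H and 193 for E1126G. In R749H 34 events were called in both, 24 lower and 8 higher in each assay, and 2 in opposite directions, CREM among them. The 32 events called the same way were 60.4% of the 53 called by RNA-seq, and RASL-seq called 80 of the shared members. In E1126G all 34 events called in both went the same way, 32 lower and 2 higher, which was 79.1% of the 43 called by RNA-seq and 30.9% of the 110 called by RASL-seq. Over all events in both assays, the calls of equal direction were 98.2% of those called in both in R749H, 65.9% of the RNA-seq calls and 35.6% of the RASL-seq calls. In E1126G these shares were 99.4%, 82.3% and 20.5%. Across events, which are not replicates, Pearson's r of the log2 changes was 0.64 in R749H and 0.55 in E1126G, and that of the WT inclusion was 0.69 and 0.71. Both assays measure the same genotypes, and whether their RNA came from the same cultures is not stated.

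**Figure D4:**
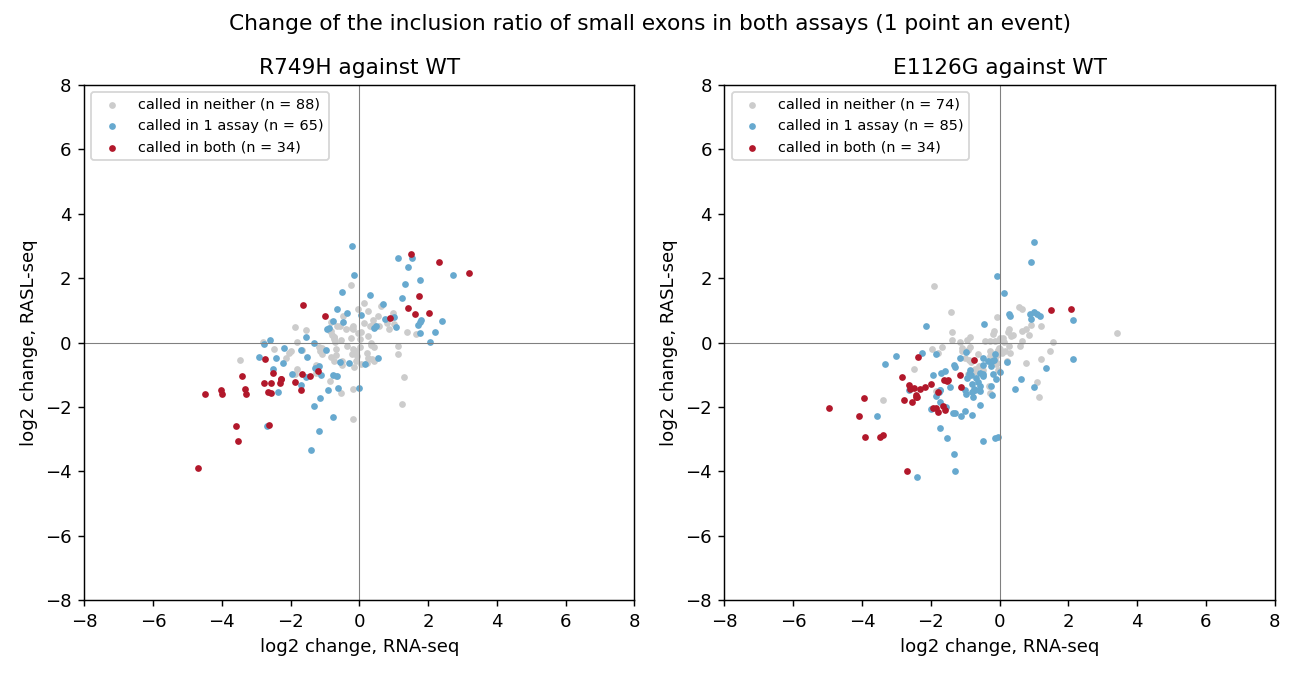
log2 change of the inclusion ratio by RNA-seq (horizontal) against that by RASL-seq (vertical) for small exons in both tables, for R749H and E1126G; each point is 1 event, red where called in both assays, blue where called in 1 and grey where called in neither. All 34 red points of E1126G and 32 of 34 in R749H lie in the quadrants of equal sign.

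The difference between mutants was tested directly with an approximate z test on the log2 changes and their derived errors, adjusted over all events a pair of tables shares. By RNA-seq R749H and E1126G differed in 9 of 974 members, 0.924%, against 1.73% of all shared events. The size of the RNA-seq errors given above limits this test. TNNT1, slow skeletal troponin T, was the 1 member called in opposite directions, at 33.3% in WT, 50.6% in R749H and 16.5% in E1126G. MTA1 was lower in E1126G than in R749H, and so were 2 overlapping exons of RAN, the GTPase of nuclear transport. The RAN exons, of 34 and 46 nt, share their start and are not independent. The 46 nt exon changed by only -1.58 points in E1126G and 0.06 points in R749H. CDC25C, FIP1L1 and WARS1 were lower in R749H than in E1126G, and HNRNPH1 was higher in R749H. WARS1, the tryptophanyl-tRNA synthetase, fell from 22.0% in WT to 1.16% in R749H and was at 14.3% in E1126G.

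By RASL-seq differences were common. R749H and H1106Y, both slow, differed in 65 of 178 members (36.5%, against 41.5% of all shared events), and R749H was the higher in 47 of them. R749H and E1126G differed in 83 of 187 (44.4%, against 33.8%), with R749H the higher in 72. H1106Y and E1126G differed in 86 of 176 (48.9%, against 49.2%), with H1106Y the higher in 56. Members called in opposite directions numbered 3, 12 and 19 in these 3 pairs, which was 1.69%, 6.42% and 10.8% of the shared members, against 3.98%, 4.98% and 10.2% of the shared events that were RNA-seq rows.

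The slow mutants moved some exons apart. DNM1L was at 46% in WT, 69.7% in R749H, 30.4% in H1106Y and 50.2% in E1126G, the last not called. By RNA-seq DNM1L rose in R749H as well, from 76.4% to 91.5%. ADGRL3, an adhesion receptor of the latrophilin family like ADGRL2, was at 22.9% in WT, 10.0% in R749H, 51.7% in H1106Y and 13.9% in E1126G. NAP1L4, a histone chaperone, fell from 72.3% to 33.5% in H1106Y and was at 75.5% in R749H and 72.5% in E1126G, neither called.

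Slow and fast mutants moved others apart. MDM4, the p53 inhibitor, carries a 39 nt exon (chromosome 1, 204506587 to 204506625) that was at 79.1% in WT, 94.4% in R749H, 88.6% in H1106Y and 44.1% in E1126G by RASL-seq; the H1106Y change was not called. By RNA-seq MDM4 was at 30.3% in WT, 80.0% in R749H and 16.7% in E1126G, the last not called. SMARCA1, an ISWI-type remodelling ATPase, was at 56.0% in WT, 47.5% in R749H, 38.3% in H1106Y and 70.2% in E1126G. ZDHHC16, a palmitoyltransferase, was at 50.4% in WT, 69.8% in H1106Y and 31.2% in E1126G. NCAM1, the neural cell adhesion molecule, was at 49.2% in WT, 62.8% in H1106Y and 34.4% in E1126G. TPP2, a tripeptidyl peptidase, was at 34.6% in WT, 54.9% in H1106Y and 24.3% in E1126G. In these last 3 exons R749H lay at 56.4%, 52% and 37.7%, above WT and not called.

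**Figure D5:**
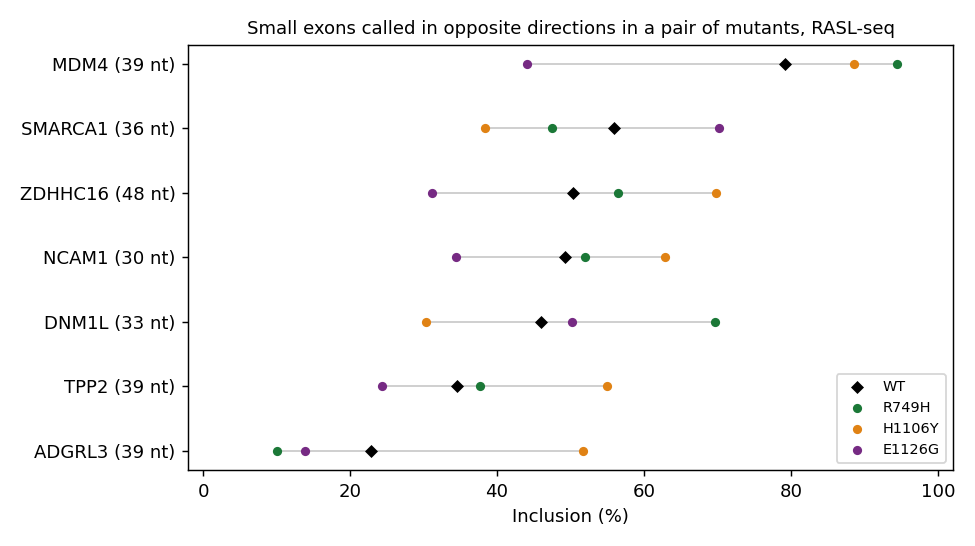
Inclusion (percent) by RASL-seq of the 7 small exons called in opposite directions in a pair of mutants with at least 10 points each way; diamonds are WT and dots are the mutants, each the pooled level of 3 libraries. WT lies between the mutants for each exon, E1126G is lowest for MDM4, ZDHHC16, NCAM1 and TPP2, and H1106Y is highest for ADGRL3 and lowest for DNM1L and SMARCA1.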

How the data were processed

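The authors deposited 5 exon tables and 2 intron tables with 1 row per event, and the members and gene lists were chosen with earlier results of these data known. Per the file headers a row holds the inclusion ratio in WT, its change in the mutant and a p-value. The deposited WT ratio is on a natural log scale and the deposited change on a log2 scale, which was checked on the values: read so, at least 71.7% of the members' WT ratios were ratios of whole numbers up to 300 (tolerance 1e-09), against at most 0.291% in base 2. The authors' p-value is not adjusted, and the sources used here do not give its test. The R749H tables were assigned through the labels of the R749H samples. RNA-seq reads were mapped with TopHat per the labels' protocols, and Bowtie 0.12.7, edgeR 3.7.17 and GRCh37 appear in the submitters' processing notes without a role. The sources used here do not say how junction reads of short exons were mapped or whether a constant was added to the ratios, and both can shift the level of a small exon.

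Ratios were converted to percent inclusion, p-values were adjusted over each whole table (Benjamini-Hochberg, threshold 0.05), and the standard error of a log2 change was taken as its size divided by the normal quantile of its p-value. Mutants were compared by a z test on these values, which treats the shared WT as independent. Named exons are the 10 largest rises and falls called in each comparison, events called in all 5 tables, events called in opposite directions, and up to 4 per gene list; other exons, such as MTA1, NAP1L4 and WARS1, were named after their values were seen, and a few members that these rules name are not reported here. The calls and the z test were tested on simulated data. Python 3.11.15, pandas 2.3.3 and scipy 1.17.1 were used. The GRO-seq samples were not analysed here. Alternatives were thresholds of 0.01 and 0.1, a change of 10 points, WT inclusion of 5 to 95%, lengths of 30 to 48 nt, each position counted 1 time and direction around the median; leaving out events with shared values was added after seeing the data.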

Additional observations from a re-analysis of the deposited data

Results flagged for a closer look

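Several small exons were called in opposite directions in 2 mutants by at least 10 points each way. A choice made on opposite calls fixes the outcome of a z test of the difference, so the differences are given as descriptions. By RNA-seq the log2 change of TNNT1 was 2.38 higher in R749H than in E1126G. By RASL-seq, DNM1L was 2.40 higher in R749H than in H1106Y, and for ADGRL3 the log2 change in R749H minus that in H1106Y was -3.26. MDM4 was 4.41 higher in R749H than in E1126G. ZDHHC16, TPP2 and NCAM1 were 2.35, 1.92 and 1.69 higher in H1106Y than in E1126G, and for SMARCA1 the log2 change in H1106Y minus that in E1126G was -1.92. Each is 1 pooled value per mutant.

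CREM, a cAMP-responsive transcription factor, was called in opposite directions by the assays in R749H by at least 10 points each way. CREM went from 34.3% to 14.4% by RNA-seq and from 26.6% to 44.8% by RASL-seq, a difference of the log2 changes of -2.80. Its event with the longer left intron was not called in R749H by either assay. This difference between assays was chosen after seeing the data and is given as a description too.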

How the results depend on the processing

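At a threshold of 0.01 the calls were 122 in R749H and 67 in E1126G by RNA-seq, with 81.1% of the R749H calls lower; 22 members were called in both assays in E1126G, and 4 differed between R749H and E1126G by RNA-seq. At 0.1 that last count was 20. Among the 10 largest rises and falls of each comparison, 89 stayed called at 0.01 and 11 did not. ARAP1 and SLC25A36 in R749H by RASL-seq and MDM4 in R749H by RNA-seq were among these 11. With a change of at least 10 points required, RASL-seq kept 40, 65 and 59 calls in R749H, H1106Y and E1126G, and 70.0% of the R749H calls were lower. The other counts and shares stayed within 1.5 times their value or within the binomial interval of the share under all settings run, and no direction reversed. Without events that carry another exon's values the adjusted p of DDX19B in H1106Y by RASL-seq was 0.0502. No paired analysis was possible because the tables hold 1 pooled value per genotype and no value per library. Leaving out each replicate was not run for the same reason, so no result here has a check on the spread between libraries. Depth is unknown.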
